A study of Caenorhabditis elegans with 6 samples.

Results

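The genes considered here encode the aminoacyl-tRNA synthetases, the initiation and elongation factors and eIF5A of C. elegans, and the question was which of them lay near a binding site of the hypoxia-inducible factor HIF-1. This group was taken up with earlier results of these data known. Its members were then picked by name from the WBcel235 annotation (a letter followed by ars-1, ars-2 or ars-3, or a name that starts with eef-, eif-, iff-, ife- or ifg-), which gave 71 of 19973 nuclear protein-coding genes. Of these, 32 encode synthetases, 31 initiation factors, 6 elongation factors and 2 eIF5A. A gene counted as near a peak when no more than 1000 bp separated the peak centre from 1 of its annotated transcription start sites (TSSs).

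HIF-1::GFP was immunoprecipitated with anti-GFP antibodies from whole L4 larvae (hermaphrodites) grown at 20 °C in room air on OP50 bacteria. All animals lacked the function of the endogenous hif-1 gene (the deletion allele ia4) and carried odIs131, an integrated fosmid transgene that supplies hif-1::gfp and, in the unc-119(ed3) background of every animal, a working unc-119(+). It was made by bombardment and is a single line. The control strain had no further mutation, and the egl-9 mutants also carried the sa307 allele of egl-9, which disables the hydroxylase that targets HIF-1 for destruction when oxygen is present. Each genotype had 2 ChIP replicates and 1 pooled input, which the authors had reduced to 1 peak list per genotype, so the values below have no spread between replicates and no read counts, and no test between genotypes was run. In egl-9 mutants there were 604 nuclear peaks with signals (the deposited signal value of the SPP peak calls) from 54.4 to 838 and a median of 76.7, and the control list held 52 with signals from 141 to 671. The lowest control signal in the deposited list, which differs from the lowest enrichment value stated in the study's methods, was reached by 86 of the 604 peaks, and signals of the 2 lists were not scaled to each other, so a gene's absence from the control list does not show the absence of weaker binding. Whole animals were used, so the cell type of a peak is unknown. The study placed most of the 604 sites in or near regions occupied by many other transcription factors. It names such regions as a possible source of false ChIP signals. Their nearest genes changed little in expression on average, although genes that the study called direct targets there did change. Whether the peaks described below lie in such regions was not tested.

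In protein synthesis, each synthetase joins an amino acid to its tRNA, initiation factors bring the ribosome to the start codon, eEF1A carries charged tRNAs to the ribosome and is recharged with GTP by the eEF1B complex, and eEF2 moves the ribosome along the mRNA. eIF5A, which carries the modified residue hypusine, helps the ribosome past difficult peptide bonds. In mammalian cells, low oxygen is known to slow protein synthesis through inhibition of initiation and elongation factors. HIF-1 binds hypoxia response elements (HREs), whose core is ACGTG or GCGTG.

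Near these 71 genes, 8 peaks were found in egl-9 mutants, and the DNA under 5 of them is shown here because its HRE cores, or their absence, are described below. Each stretch is the longest run without an annotated exon of a coding gene in a 201-bp window around the peak centre. It is read 5′ to 3′ on the strand of the named gene in the RefSeq copy of WBcel235. Capitals mark each HRE core, as ACGTG or GCGTG or, where the core is on the other strand, as CACGT or CACGC.
eef-1A.1 (chrIII:6972014-6972214, minus strand): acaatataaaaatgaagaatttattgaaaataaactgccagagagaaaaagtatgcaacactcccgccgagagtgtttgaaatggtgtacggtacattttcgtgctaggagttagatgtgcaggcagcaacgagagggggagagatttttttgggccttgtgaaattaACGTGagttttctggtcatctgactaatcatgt
eef-1A.2 (chrX:7823209-7823409, plus strand): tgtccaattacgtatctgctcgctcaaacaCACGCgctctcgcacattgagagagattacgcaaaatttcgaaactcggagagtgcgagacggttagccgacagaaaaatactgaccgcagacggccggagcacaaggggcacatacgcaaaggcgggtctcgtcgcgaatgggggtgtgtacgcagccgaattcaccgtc
eef-1B.1 (chrIII:7973387-7973467, minus strand): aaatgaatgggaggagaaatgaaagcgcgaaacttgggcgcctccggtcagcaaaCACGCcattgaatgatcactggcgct
eef-1G (chrV:10965599-10965718, plus strand): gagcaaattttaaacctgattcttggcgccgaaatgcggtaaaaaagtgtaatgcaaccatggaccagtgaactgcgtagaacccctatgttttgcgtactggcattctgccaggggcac
iff-2 (chrII:8561368-8561532, minus strand): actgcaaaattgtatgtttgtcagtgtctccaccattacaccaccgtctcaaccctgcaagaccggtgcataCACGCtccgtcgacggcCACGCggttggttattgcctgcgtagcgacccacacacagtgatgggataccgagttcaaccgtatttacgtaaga
The stretch at iff-2 held 2 cores, those at eef-1A.1, eef-1A.2 and eef-1B.1 held 1 each, and that at eef-1G held none.

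In egl-9 mutants, 8 of the 71 genes (11.3%) lay near a peak, compared with 453 of all 19973 coding genes (2.27%) and 445 of the 19902 coding genes outside the group (2.24%). At the share of all coding genes, 1.61 of 71 genes would be near a peak. The 8 genes were the elongation factor genes eef-1A.1, eef-1A.2, eef-1B.1, eef-1G and eef-2, the eIF5A gene iff-2, the eIF3 subunit gene eif-3.C and cars-1, which encodes the cysteinyl-tRNA synthetase of the cytoplasm. Each had a single peak near it, and none of these peaks was near another of the 8. In the control strain 0 of the 71 genes lay near a peak, where 28 of all coding genes (0.140%) did, a share at which 0.0995 of 71 genes would be near one. Their nearest control peaks were between 28487 bp (eif-3.J, a subunit of eIF3) and 7597785 bp (fars-2, a synthetase for phenylalanine) away, and no peak of egl-9 mutants near these genes overlapped a control peak.

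The roles differed in how many of their genes lay near a peak. Among elongation factors it was 5 of 6 (83.3%), among eIF5A genes 1 of 2 (50.0%), among initiation factors 1 of 31 (3.23%) and among synthetases 1 of 32 (3.12%). Without the elongation factors, 3 of 65 genes (4.62%) remained near a peak. No gene of the group had its nearest peak between 402 and 2027 bp, so none lay just outside the distance used.

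**Figure D1:**
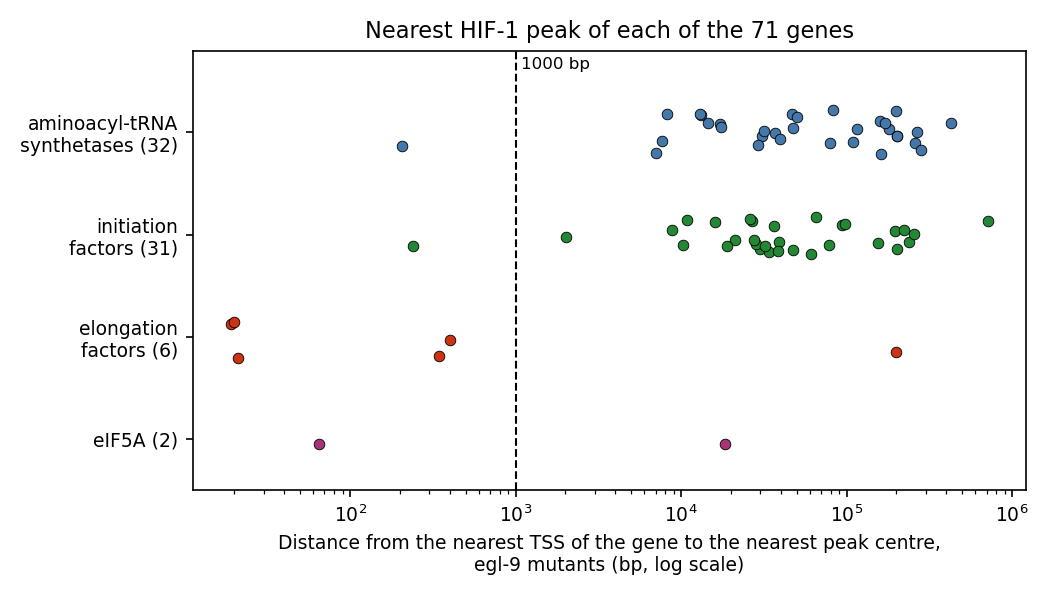
Distance from the nearest TSS of each of the 71 genes to the nearest peak centre of egl-9 mutants (bp, log scale), by role, with the dashed line at 1000 bp and points spread vertically only for legibility. The 8 genes near a peak lie between 19 and 402 bp, 5 of them elongation factors, and the next gene, eif-6, lies at 2027 bp.

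The closest peaks were those of eef-1B.1, eef-1G and eef-2, while those of eef-1A.2 and eef-1A.1 were the farthest of the 8. The peak of eef-1B.1, which encodes a subunit of the complex that exchanges GDP for GTP on eEF1A, spanned chrIII:7973145-7973588 with a signal of 83.6 (rank 248 of 604), and its centre lay 19 bp downstream of the TSS in the 5′ UTR. That of eef-1G, which encodes the gamma subunit of the same complex, spanned chrV:10965477-10965920 with a signal of 90.0 (rank 212) and was centred 20 bp upstream of 1 of its 5 annotated TSSs. The intervals of these 2 peaks covered a TSS of their gene, as did those of the peaks of eef-2, iff-2 and cars-1. The sixth elongation factor gene, eef-1B.2, which is also named for the eEF1B complex, had its nearest peak 198982 bp away.

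The paralogs eef-1A.1 and eef-1A.2, which both encode eEF1A, each had a peak farther upstream. The peak of eef-1A.1 (chrIII:6971892-6972335) had a signal of 98.8, rank 174, with its centre 402 bp upstream of the TSS. The peak of eef-1A.2 (chrX:7823087-7823530) had a signal of 70.5, rank 349, with its centre 345 bp upstream of the TSS. The interval of this peak held no annotated exon of a coding gene. The only exon bases in the interval at eef-1A.1 were those of the neighbouring gene rfc-4, so neither interval held eEF1A coding sequence. The coding sequences of these paralogs were 94.0% identical over 1389 bp, and the effect of this on read placement was not tested. The longest run of bases that their peak intervals shared was 12 bp.

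The peak of eef-2, the gene of the translocation factor eEF2, spanned chrI:9163334-9163777 with a signal of 65.3 (rank 406). Its centre lay 21 bp upstream of 1 of 3 annotated TSSs, within the 5′ UTR of another eef-2 transcript.

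The highest signal in the group, 179, was at iff-2 (chrII:8561210-8561653), which ranked 54 of 604 and was the only peak of the 8 to reach the lowest control signal. Its centre was 65 bp upstream of the TSS. The other eIF5A gene, iff-1, had its nearest peak 18450 bp away, and the coding sequences of iff-1 and iff-2 were 65.0% identical.

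Among initiation factors, eif-3.C, which encodes a core subunit of the eIF3 complex, had a peak at chrI:9979681-9980124 with a signal of 111 (rank 136), centred 241 bp upstream of its TSS and overlapping 62 bp of the 3′ UTR of the neighbouring gene sys-1, which encodes a beta-catenin. The other 10 of 11 eIF3 genes were not near a peak, nor were the 7 genes placed under eIF4 by name only (ife-1 to ife-5, ifg-1 and eif-4A3). The same held for the 5 genes of eIF2B, the exchange factor of eIF2, and the 3 genes of eIF2 itself. The closest initiation factor gene not near a peak was eif-6, a factor of the large ribosomal subunit, at 2027 bp from a peak with a signal of 71.7. The farthest was ife-3, which encodes a cap-binding eIF4E, at 716200 bp.

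Among synthetases, the peak of cars-1 spanned chrI:2628560-2629003 with a signal of 65.0, rank 411. It was centred 205 bp upstream of 1 of 2 annotated TSSs. The other 31 synthetase genes had their nearest peaks between 7007 bp (lars-1, for leucine) and 425814 bp (nars-2, for asparagine). The median distance to the nearest peak was 37122 bp over the 71 genes and 75057.5 bp over other coding genes. Within 15000 bp, 18 of the 71 genes (25.4%), the 8 near genes included, had a peak, compared with 15.1% of other coding genes. Without the elongation factors, the median was 39186 bp and the share 13 of 65 (20.0%). Chromosome V held 8 of the 71 genes, 4994 of all 19973 coding genes and 90 of the 604 peaks. The effect of such differences in placement was not tested.

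**Figure D2:**
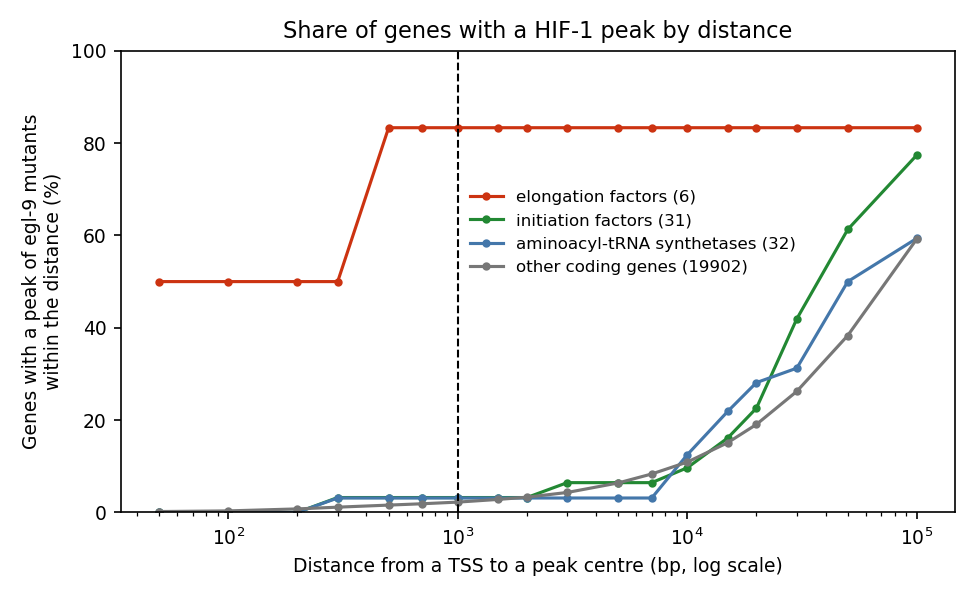
Share of genes (%) with a peak centre of egl-9 mutants within the distance on the x axis (bp, log scale) for elongation factors, initiation factors, synthetases and other coding genes, with the dashed line at 1000 bp. The elongation factors reach 83.3% at 500 bp, where other coding genes are at 1.59%, while initiation factors and synthetases are near the level of other genes up to 5000 bp.

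The 8 peaks were of middling signal within the list. Their signals ran from 65.0 to 179 with a median of 86.8, beside a median of 76.7 over the other 596 nuclear peaks and of 74.8 over the 353 other peaks within 1000 bp of a coding TSS. Of the 8 peaks, 5 ranked in the top 302, namely those of iff-2, eif-3.C, eef-1A.1, eef-1G and eef-1B.1. For scale, the leading peaks lay 888 bp from a TSS of rhy-1 (signal 838), 1767 bp from a TSS of egl-9 (688, beyond the 1000 bp used here) and 204 bp from a TSS of nhr-57 (670), and their counterparts in the control list had signals of 309, 671 and 479. The peak of iff-2 was thus below those of these genes, which are known targets of HIF-1. All 8 intervals were 444 bp wide, as were 549 of the other 596.

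**Figure D3:**
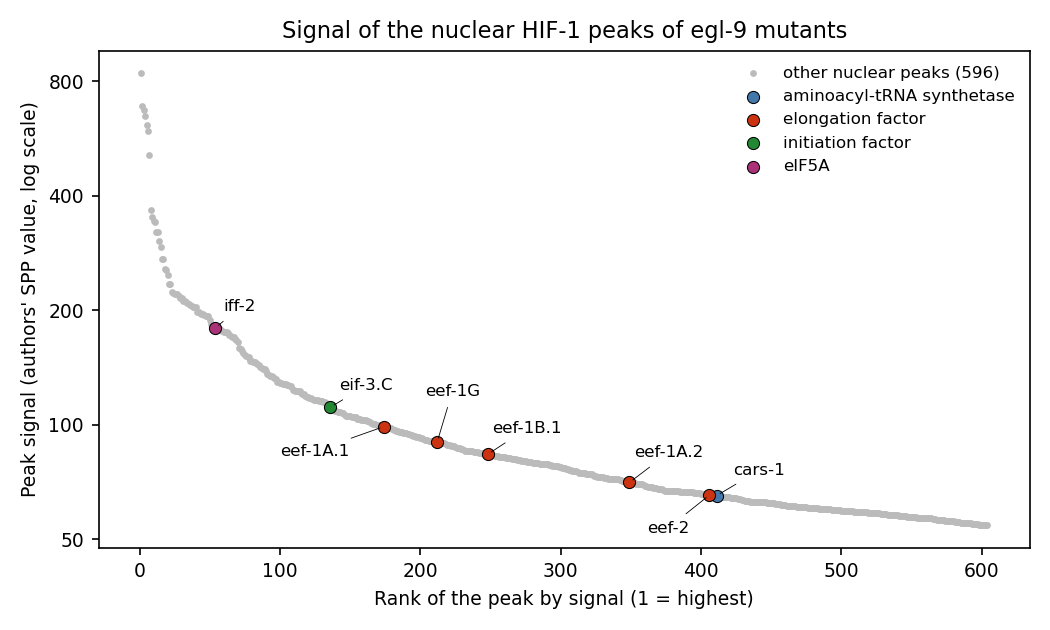
Signal of each nuclear peak of egl-9 mutants (the authors' SPP value, log scale) against its rank, with the 8 peaks near the named genes coloured by role and 596 other peaks in grey. The iff-2 peak has a signal of 179 at rank 54, and the other 7 lie between 65.0 and 111.

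HRE cores were counted on both strands within 100 bp of each peak centre. They were present in 7 of the 8 peaks (87.5%), compared with 402 of the other 596 (67.4%) and 70.0% of the other peaks near a coding TSS. The exception was eef-1G, whose window held none and whose full interval held 1. Windows of the same width were also centred on the 5′ end of the gene instead of a peak. They held a core in 4 of the 8 genes (50.0%) and in 30.2% of other coding genes. The 7 peaks with a core held 8 in all, since iff-2 held 2, at 74 and 91 bp upstream of its TSS nearest to the peak. Peaks with several cores were fewer, with 1 of 8 (12.5%) holding 2 or more compared with 36.1% of the other 596.

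The core GCGTG accounted for 6 of the 8 cores (75.0%) and for 289 of 753 (38.4%) in the other peaks. It was the core at eef-1A.2 (413 bp upstream of the TSS), eef-1B.1 (24 bp upstream), eef-2 (10 bp downstream), eif-3.C (227 bp upstream) and iff-2. ACGTG was the core at eef-1A.1 (332 bp upstream) and at cars-1 (148 bp upstream), or 25.0% of the 8 peaks compared with 44.5% of the other 596. The peak at cars-1 held the only core of the 8 preceded by T (TACGTG), or 12.5%, where T preceded 28.2% of the cores in the other peaks. The letters GAGAGA were in 2 of the 8 windows, at eef-1A.1 and eef-1A.2, or 25.0% compared with 41.1%, and the palindrome CACGTG, which contains ACGTG, was in 0 of 8 compared with 14.6%. The median GC content of the 8 windows was 44.8%, from 38.8% at cars-1 to 54.7% at eef-1A.2, beside 45.3% in the other peaks. With 8 peaks, 1 peak more or fewer moves any of these shares by 12.5 percentage points.

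**Figure D4:**
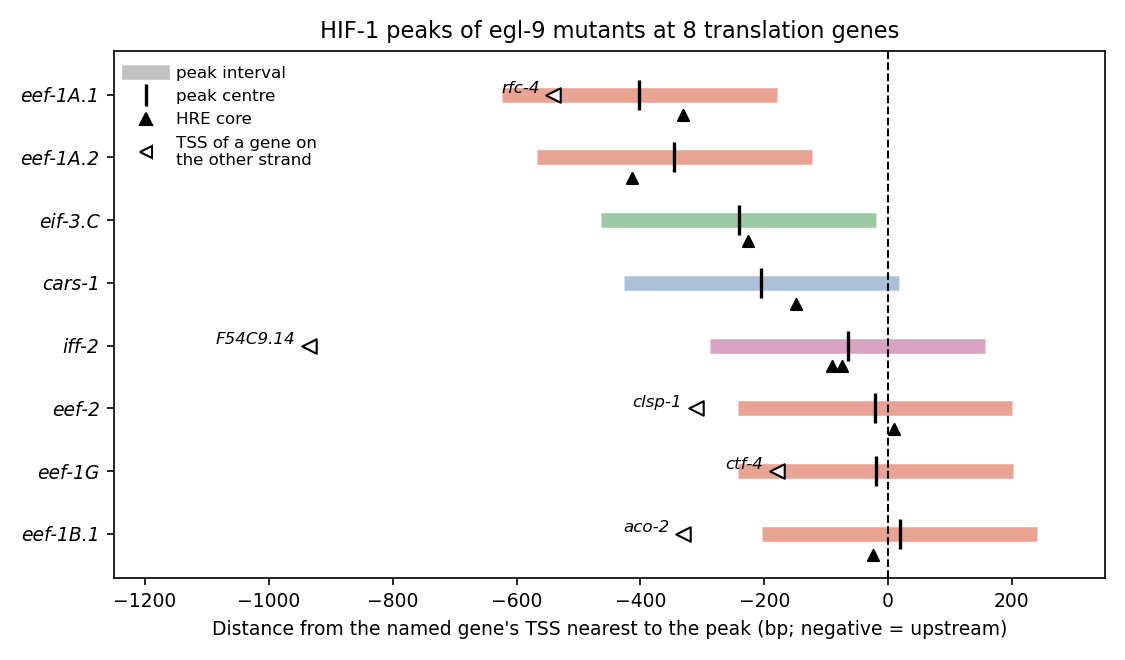
Position of each of the 8 peaks relative to the named gene's TSS nearest to the peak (bp, negative upstream). Bars mark the 444-bp intervals and vertical ticks the peak centres. Filled triangles mark HRE cores within 100 bp of the centre, and open triangles the TSS of a gene on the opposite strand. Centres lie from 402 bp upstream at eef-1A.1 to 19 bp downstream at eef-1B.1, and eef-1G has no filled triangle.

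Cores were also common in the promoters of genes that were not near a peak. In the 500 bp before the 5′ end, a core was present in 40 of the 71 genes (56.3%) and in 54.8% of other coding genes. All 8 genes near a peak had one. At cars-1, eef-1A.1, eef-1A.2, eef-1B.1, eif-3.C and iff-2 these included the cores already counted in the peak windows, so the counts overlap. A core was also present in 32 of the 63 genes not near a peak (50.8%). Among the latter, hars-1 and ears-2, which encode synthetases for histidine and glutamate, had 3 cores each, as many as eef-1A.2, with their nearest peaks 37122 and 264476 bp away. Promoters with 2 or more cores made up 14.1% of the group and 25.1% of other coding genes.

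Shared promoter regions were common among these peaks. Of the 8, 5 (62.5%) also lay within 1000 bp of a TSS of another coding gene, compared with 33.1% of the other peaks near a coding TSS. In every case that gene was on the opposite strand. Close neighbours were also common in the group without a peak. Of the 63 genes not near a peak, 32 (50.8%) had another coding TSS within 1000 bp of the 5′ end. At eef-1A.1 the centre was closer to rfc-4, a subunit gene of the replication factor C clamp loader, at 139 bp, than to eef-1A.1 at 402 bp. At eef-1G the partner was ctf-4, named for a replisome factor, at 160 bp, and at eef-2 it was clsp-1, which encodes claspin of the replication checkpoint, at 290 bp. The partner of eef-1B.1 was aco-2, which encodes mitochondrial aconitase, at 350 bp, and that of iff-2 was F54C9.14 at 870 bp. The peaks of cars-1, eef-1A.2 and eif-3.C had no such partner. The peak list does not tell which gene of a pair, if either, responds to HIF-1.

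The group also differed from other genes in annotation. More than 1 TSS was annotated for 52.1% of the 71 genes and 27.3% of other coding genes, and another coding TSS lay within 1000 bp of the 5′ end for 52.1% and 24.5%. A gene with more TSSs has more positions at which the distance rule can be met. Among genes with 1 annotated TSS, 4 of 34 (11.8%) in the group and 1.74% of other coding genes were near a peak. Among those with no other coding TSS within 1000 bp it was 3 of 34 (8.82%) and 1.56%, and among those with both several TSSs and a close neighbour 3 of 19 (15.8%) and 6.35%.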

How the data were processed

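ChIP-seq of HIF-1::GFP in L4 larvae had been aligned by the authors with BWA to WBcel235 (named in the submitters' processing notes), and peaks had been called with SPP and filtered on the irreproducible discovery rate between replicates. The deposited lists give each peak's interval, summit offset and signal, an enrichment value not scaled between genotypes. What the q value field holds is unclear, and it was not used. The study's methods state read depth only as a range over all libraries and the lists hold no read counts, so no counting interval was set. The lowest signals in the deposited lists differ from the lowest enrichment values stated in those methods, for a reason not given there, so the signal was used as deposited and ranked within each list. Mitochondrial peaks (19 in egl-9 mutants, 18 in the control strain) were left out.

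Peak centres were compared with all TSSs of Ensembl release 115 (1000 bp), and cores were searched in 201-bp windows of the RefSeq WBcel235 genome with Python 3.11.15, pandas 2.3.3, numpy 2.4.6 and Biopython 1.88. The counting was tested on simulated data. Genes named were those near a peak, their coding neighbours within 1000 bp of that peak, the closest and farthest of each role, and rhy-1, egl-9 and nhr-57. eif-3.J, fars-2, hars-1, ears-2 and sys-1 were named after their values were seen. The genes and lists were chosen with earlier results of these data known. Of 45 further translation genes listed by name, 38 were found in the annotation.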

Additional observations from a re-analysis of the deposited data

How the results depend on the processing

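Of 37 alternatives, 29 left a value within 1.5 times the reported one and 8 did not. The same 8 genes were near a peak within 500 or 2000 bp, with the outermost 5′ end only, with summits for midpoints, with overlapping peaks merged and after removal of peaks with a tRNA, snoRNA or snRNA gene closer than 500 bp. Where each peak was given to its nearest coding gene only, 7 genes remained, since the eef-1A.1 peak went to rfc-4. With the top 302 peaks only, 5 genes (3 elongation factors) were near a peak, beside 1.14% of other coding genes. With peaks that reached the lowest control signal, 1 gene (0 elongation factors) was, beside 0.312%. A core was in 4 of the 8 peaks within 50 bp of the centre (46.8% of other peaks), in 2 with ACGTG alone (44.5%), and in all 8 within 200 bp (78.4%). No gene was near a control peak under the alternatives run. No paired analysis was possible because each genotype had 1 list with no values per replicate, and for the same reason no replicate could be left out.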

Other observations

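Other genes of the translation machinery were counted in the same way, beside the 2.27% of all coding genes near a peak of egl-9 mutants. Of 81 cytosolic ribosomal protein genes, 17 (21.0%) did, with the highest signal at rpl-3 (342, rank 11), and rpl-3 and rpl-15 were also near a control peak. Of 70 mitochondrial ribosomal protein genes, 2 (2.86%) did, mrpl-53 and mrps-21, a share near that of all coding genes. Of 38 further translation genes, 2 (5.26%) did. These were efk-1, which encodes the kinase that inhibits eEF2, and larp-1, which encodes a La-related RNA-binding protein. The peak of efk-1 had a signal of 83.8, a centre 516 bp upstream of the TSS and 3 HRE cores within 100 bp of that centre. The peak of larp-1 had a signal of 108, a centre 687 bp upstream of the TSS and 1 core.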
